A study of Mus musculus with 2 samples.

Results

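Heat shock chaperones are the proteins that fold new polypeptides, refold damaged ones and hold client proteins in shape. 10 of them, chosen by name from a list of inducible and constitutive chaperones of the cytosol and mitochondria, were followed among the 31053 genes measured in mouse leukemia cells. The question set for them was whether the members that stress induces go along with the immediate early genes, a class of genes such as Fos and Jun that are switched on within minutes of a stimulus, between the libraries and from cell to cell. The answer differed by member. All 10 were lower in the library labelled tamoxifen, each by less than 1.5-fold over all kept cells, with a counting interval below 0 as 39.8% of all genes compared had. Their median log2 ratio was -0.25, against -0.42 for the immediate early genes and -0.063 for all genes. In G1 cells alone Hspe1 was higher (0.19), and Hspa1a and Hspa1b were at least 1.5-fold lower, as were 3.31% of genes there. After G1 cells were thinned to 1 depth, the intervals of both Hspa1 genes held 0. Across cells, Hspa1a, Hspa1b and Dnajb1 were higher where immediate early gene counts were high, and Hsp90aa1 and the mitochondrial chaperonins were lower there. Cell cycle phase and depth differed along with those counts. In G1 cells of the library labelled oil the intervals of the Hspa1 genes and of Hspd1 held 0.

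The cells were AE9a leukemia cells, which carry a truncated AML1-ETO fusion and GFP. Their Usp18 gene is floxed, and they hold UBCER-Cre, a recombinase made in all tissues that works once tamoxifen is given. They had been transplanted into recipient mice. After the mice fell sick they were injected with oil or with tamoxifen, and GFP+ Lin- c-Kit+ cells were taken from the spleen by sorting, 3 days after injections began. Each group was 1 library made from 3 pooled mice with 8000 cells targeted, and no label assigns cells to mice. The genotype labels give Usp18f/f for the oil group and Usp18delta/delta for the tamoxifen group, and the series title and the study's data statement also speak of a loss of both alleles. The treatment text gives Usp18+/f and a heterozygous loss instead, so the groups are named here by injection alone. The transgenic Cre and the floxed allele are shared by both groups, and tamoxifen itself was given to 1 group only, so the agent and the deletion cannot be told apart.

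The library labelled oil kept 6838 of 7774 barcodes and 66045700 UMIs, that is counted transcript molecules, and the library labelled tamoxifen kept 6472 of 7311 barcodes and 60661486 UMIs. The median cell had 8622.5 and 8209.5 UMIs. The libraries shared 14 barcodes, 12 of them among kept cells. Usp18, the targeted gene, had 5.62 CPM in the library labelled oil and 15.4 CPM in that labelled tamoxifen. CPM are UMI counts scaled to the library's total in the usual way. The gene was thus higher, not lower, in the library whose label gives its deletion. The 3′ reads leave unseen whether an exon further upstream was lost, and whether the deletion took place was not tested. The groups are therefore called by their labels throughout. Kit was present at 171 and 232 CPM, and the leukocyte marker Ptprc was nearly absent with 9 and 3 UMIs. Summed markers of T cells, B cells and neutrophils lay between 0 and 0.212 CPM, those of endothelial cells, macrophages and megakaryocytes between 0.969 and 9.79 CPM, mast and basophil markers were at 840 and 668 CPM, and erythroid markers were at 4654 and 5880 CPM. The part of these markers in the differences below was not tested. All intervals given are 95% counting intervals of the 2 libraries. They cover counting error only, and since each group is 1 library, no replicate check, test or p-value can be had.

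In an unstressed cell, heat shock factor 1, encoded by Hsf1, is held inactive. Misfolded protein releases it, and it then binds arrays of the short block GAA, alternating with its complement TTC, in front of its target genes. HSP70 proteins (Hspa1a, Hspa1b, Hspa8) bind exposed hydrophobic stretches, HSP40 or J proteins (Dnajb1, Dnaja1) hand them clients and trigger their ATP hydrolysis, and Hsph1 exchanges their nucleotide. HSP90 proteins (Hsp90aa1, Hsp90ab1) mature kinases and receptors, and Hspd1 with its lid Hspe1 forms the folding chamber of the mitochondrial matrix. Hspa8, Hsp90ab1, Hspd1 and Hspe1 are made in most growing cells and are called constitutive or mitochondrial here, although heat also raises Hspd1 and Hspe1, and the other 6 are called inducible.

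Blocks of the kind that the factor binds were looked for in windows around RefSeq start sites (GRCm38.p6), 250 bases before and 50 after. Windows of 7 of the 10 members were at hand, and those of Hspa8, Hsp90aa1 and Hsp90ab1 were not analysed here. Hspa1a (chr17:34969190-34972156, minus strand, GENCODE M21) and Hspa1b (chr17:34956436-34959238, minus strand) are single-exon neighbours 9951 bases apart, and 247 of the 250 bases before their start sites are the same. The stretch from 144 to 57 bases before each start site is shown because it holds the one GAA-TTC pair found there, which is in capitals. It lies in no annotated exon, at chr17:34972213-34972300 and chr17:34959295-34959382, and reads the same in both genes.
Hspa1a: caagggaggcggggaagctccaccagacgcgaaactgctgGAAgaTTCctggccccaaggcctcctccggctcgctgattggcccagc
Hspa1b: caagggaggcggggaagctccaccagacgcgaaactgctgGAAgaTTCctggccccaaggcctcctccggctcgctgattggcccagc

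Hspd1 (chr1:55077835-55088243, minus strand) and Hspe1 (chr1:55088132-55091307, plus strand) are transcribed away from each other and share the region between their start sites. The annotated genes overlap by 112 bases. The 30 bases below, chr1:55088053-55088082 on each strand, are shown because they hold an unbroken array of alternating blocks. They lie 150 to 121 bases before an Hspd1 start site, within an exon of a longer Hspd1 transcript, and 95 to 66 bases before that of Hspe1.
Hspd1: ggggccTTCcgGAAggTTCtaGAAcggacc
Hspe1: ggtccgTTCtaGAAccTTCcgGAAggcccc

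An array of 3 blocks was searched as GAANNTTCNNGAA and TTCNNGAANNTTC, which are each other's complement, so that 1 search covers both strands. It was found in the windows of Hspd1, Hspe1 and Hsph1, 3 of the 7 members with a window, and in 0.662% of the 27025 genes with a window. In Hsph1 it lay after the start site, within the first 48 bases. The arrays of Hspd1 and Hspe1 are the same bases read on each strand, so the 3 genes do not stand for 3 separate sites. Pairs of blocks, GAANNTTC or TTCNNGAA, which every array of 3 also contains, were found in 85.7% of the 7 members, in 15.4% of the 13 immediate early genes with a window and in 17.0% of all genes. The arrays of 3 blocks were found in 0 of those 13 immediate early genes. Among the members, the shared bases of Hspd1 and Hspe1 count for both genes, and so does the identical stretch of Hspa1a and Hspa1b. A match is a description of these letters and not a measurement of binding. Hsf1 itself had 21.8 CPM in the library labelled oil and 16.7 CPM in that labelled tamoxifen, a log2 ratio of -0.38 (-0.50 to -0.26), and it was the only one of 4 heat shock factors with at least 100 UMIs.

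The 10 members differed in level by about 3 orders of magnitude. Levels of different genes are compared as UMIs, in which a captured transcript counts as 1 whatever its length. Hsp90ab1, the constitutive cytosolic HSP90, was highest with 2964 CPM in the library labelled oil and 2461 CPM in that labelled tamoxifen. Its inducible relative Hsp90aa1 followed with 2412 and 1832 CPM, and Hspa8, the constitutive HSP70, with 1647 and 1415 CPM. The HSP90 pair alone held 65.6% and 63.8% of all members' UMIs. Of the mitochondrial pair, the lid Hspe1 (523 and 484 CPM) lay above the chamber Hspd1 (293 and 214 CPM). The J protein Dnaja1, which serves Hspa8 in unstressed cells, had 272 and 250 CPM, and Dnajb1, the J protein of the heat shock response, had 57.9 and 52.5 CPM. Hsph1 had 18.9 and 16.0 CPM. The inducible HSP70 genes were the lowest members, Hspa1b with 4.95 CPM (4.43 to 5.52) and 3.78 CPM (3.30 to 4.30), and Hspa1a with 2.63 CPM (2.26 to 3.06) and 1.83 CPM (1.51 to 2.20). No 2 neighbours in this order had overlapping intervals in either library, and Hspd1 and Dnaja1 changed places in the library labelled tamoxifen.

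**Figure D1:**
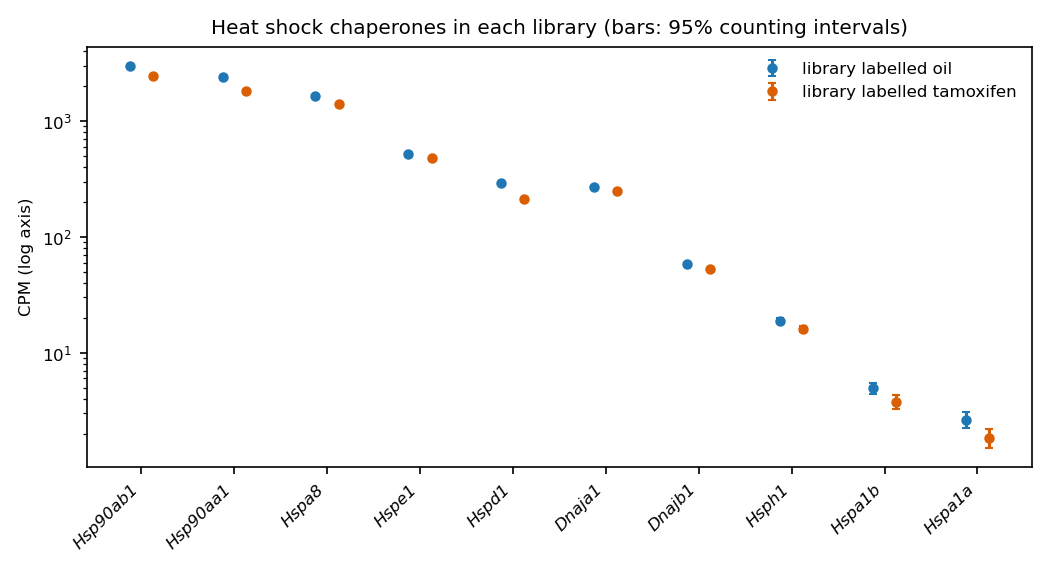
Level (CPM) of each chaperone on a log axis, in the library labelled oil (blue) and the library labelled tamoxifen (orange), with 95% counting intervals that are narrower than the points except for the lowest genes. Hsp90ab1 stands highest at 2964 and 2461 CPM and Hspa1a lowest at 2.63 and 1.83 CPM.

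Detection per cell followed the level. To compare cells of unlike depth, each was thinned to 3000 UMIs, which 6330 and 6127 cells reached. A UMI of Hsp90ab1 was then expected in 98.7% and 97.5% of cells, of Hspa8 in 97.4% and 96.3% and of Hsp90aa1 in 97.2% and 94.0%. Dnajb1 was expected in 16.3% and 14.7% of cells, Hsph1 in 4.72% and 3.88%, Hspa1b in 1.73% and 1.28%, and Hspa1a in 0.946% and 0.627%. Before thinning, Hspa1a was seen in 1.84% (1.54 to 2.19) and 1.22% (0.968 to 1.52) of cells. The sort leaves no second cell type in which the share that free RNA produces could be read, and shares of about 1% may hold such RNA.

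Hspa1a and Hspa1b are nearly identical copies. Their coding sequences matched at 99.5% of bases, while the last 300 bases of their transcripts, where 3′ reads fall, matched at only 48.7%. Hspa1a overlaps the gene Gm20481 on the opposite strand over 2225 bases. Hspd1 has 5 and Hspe1 has 6 named pseudogenes in the annotation and Dnaja1 has 1, so a small part of their reads could have been counted elsewhere or discarded.

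Between the libraries, every member was lower in the library labelled tamoxifen. The largest differences were those of Hspa1a, with 174 and 111 UMIs and a log2 ratio of -0.53 (-0.88 to -0.17), and of the mitochondrial chamber Hspd1, at -0.46 (-0.49 to -0.42). Hsp90aa1 was at -0.40 (-0.41 to -0.39) and Hspa1b, with 327 and 229 UMIs, at -0.39 (-0.64 to -0.14). The other 6 lay between -0.27 and -0.11. Hsp90ab1 had a ratio of -0.27, Hsph1 of -0.24, Hspa8 of -0.22, Dnajb1 of -0.14, Dnaja1 of -0.12 and Hspe1 of -0.11. The counting interval lay below 0 for 10 of 10 members, while 39.8% of the 10527 genes with at least 100 UMIs had such an interval and 19.3% had one above 0. Those shares cover genes of every level from 100 UMIs up. More UMIs give a narrower interval, and the shares were not matched for level. None of the 10 members was at least 1.5-fold lower or higher, against 1.27% and 2.09% of those genes. The median log2 ratio was -0.32 over the 6 inducible members, -0.24 over the 4 constitutive and mitochondrial ones and -0.063 over all genes. Together the members took 0.820% of all UMIs in the library labelled oil and 0.673% in that labelled tamoxifen. Ribosomal protein genes took 24.4% and 28.1%. With a total lacking them and mitochondrial genes, the ratios of all 10 members stayed below 0, with Dnajb1 at -0.060, Dnaja1 at -0.042 and Hspe1 at -0.032. These values carry no interval, so the count of intervals below 0 does not carry over to them. Within the matrix chaperonin, the shift was unequal, with 1.79 UMIs of Hspe1 per UMI of Hspd1 in the library labelled oil and 2.27 in that labelled tamoxifen.

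The immediate early genes were lower by more on the whole. The 16 listed genes summed to 1112 CPM in the library labelled oil and 672 CPM in that labelled tamoxifen, and 12 of them had at least 100 UMIs, with a median log2 ratio of -0.42. 5 of the 12 were at least 1.5-fold lower. These were the AP-1 subunits Fosb (-1.69), Fos (-1.22) and Jun (-1.06), the MAP kinase phosphatase Dusp1 (-1.09) and the mRNA decay factor Zfp36 (-0.94). Junb was at -0.50, Ier3 at -0.34, Ier2 at -0.34, Egr1 at -0.31, Btg2 at -0.20 and Ier5 at -0.17, and the interval of Dusp2 (-0.20) held 0. The Hspa1 pair, at -0.44 (-0.64 to -0.24) for its sum, lay between Junb and Ier3. Dnajb1 and Dnaja1 lay nearer to 0 than each of the 12 immediate early genes.

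**Figure D2:**
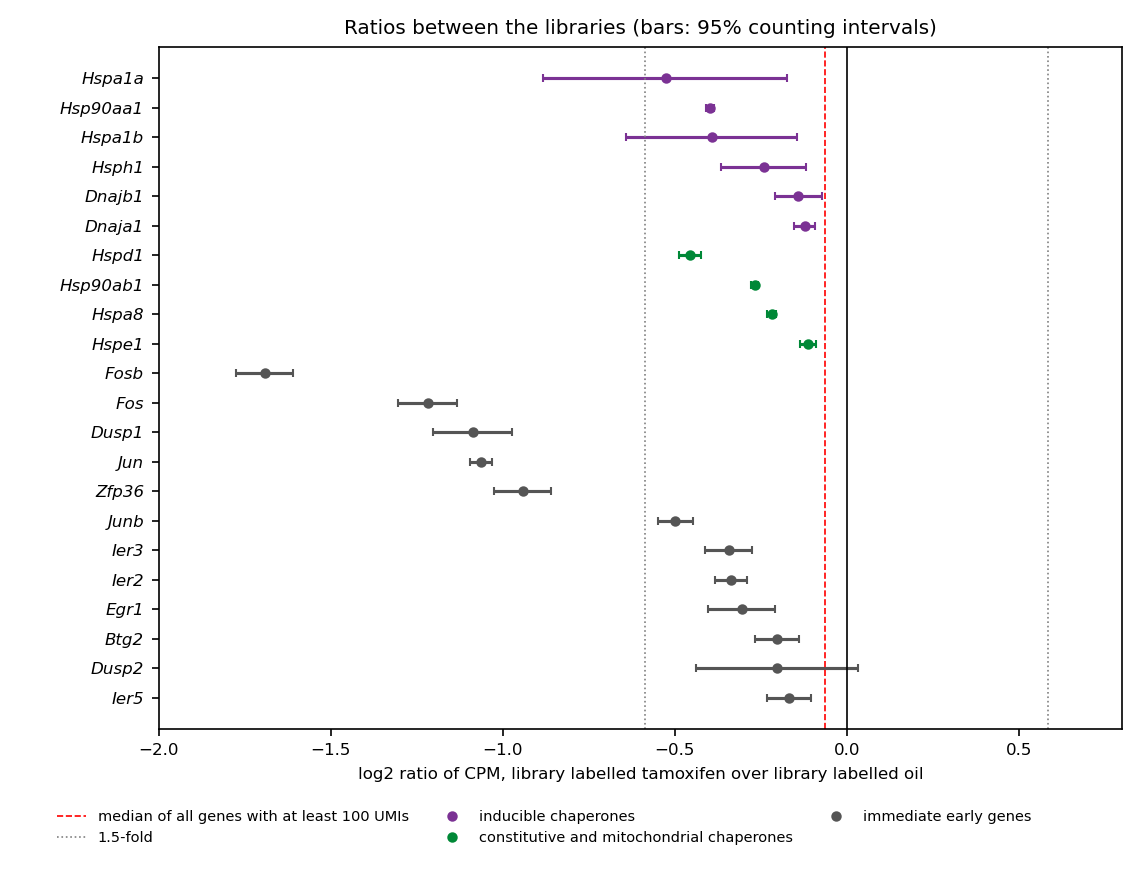
Log2 ratio of CPM, library labelled tamoxifen over library labelled oil, for the inducible chaperones (purple), the constitutive and mitochondrial ones (green) and the immediate early genes (grey), with 95% counting intervals, the median of all genes (dashed) and 1.5-fold (dotted). All 10 chaperones lie between -0.53 and -0.11, whereas 5 immediate early genes lie beyond the dotted line, down to -1.69 for Fosb.

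Other genes of the chaperone network were taken from lists drawn up by function. Their counts stand beside 39.8% of all genes with an interval below 0 and 19.3% with one above, shares that were not matched for level. In 2 of the lists, the other HSP70 and J proteins and the small heat shock proteins, no larger share was below 0 than among all genes. Of 21 measured co-chaperones of HSP70 and HSP90, 16 had an interval below 0 and 1 above, with a median log2 ratio of -0.22. Ahsa1, which stimulates the ATPase of HSP90, was at -0.53 and the HSP90-bound cyclophilin Ppid at -0.46, while the HSP70-interacting protein St13 was at 0.035 and the HSP90-bound immunophilin Fkbp5, with only 45 and 72 UMIs, at 0.80. Of 13 subunits of the cytosolic chaperonin TRiC and of prefoldin, 11 were below and 1 above, with a median of -0.29. The lowest were the TRiC subunits Cct7 (-0.39) and Cct5 (-0.38), and the highest were the prefoldin subunits Vbp1 (-0.054) and Pfdn5 (0.040). Of 14 mitochondrial chaperones and proteases, 11 were below and 0 above, with a median of -0.32. The matrix HSP70 Hspa9 (-0.41) and the matrix protease Lonp1 (-0.40) lay beside Hspd1, and Dnajc19 (0.0066) and the inner membrane protease Yme1l1 (0.021) were highest. Of 15 chaperones of the endoplasmic reticulum, 14 were below and 0 above, with a median of -0.21, from Sdf2l1 (-0.56) and the disulfide isomerase Pdia6 (-0.31) to Dnajc3 (-0.076) and Dnajb9 (0.034). Of 18 other cytosolic HSP70 and J proteins, 7 were below and 3 above, and their median of -0.045 was close to that of all genes. Dnajb2 (-0.42) and Dnajc2 (-0.37) were lowest there, and Dnajc5 (0.091) and Dnajb4 (0.15) highest. Only 3 of 10 small heat shock proteins, a class with heat-inducible members, had 100 UMIs, and the intervals of Hspb6 (-0.21), Hspb9 (-0.092) and Hspb11 (-0.038) all held 0.

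To see whether the members follow the immediate early genes from cell to cell, thinned cells were grouped by their summed immediate early gene UMIs. With 0 such UMIs there were 1011 cells (16.0%) in the library labelled oil and 1505 (24.6%) in that labelled tamoxifen, and with 6 or more there were 1546 (24.4%) and 657 (10.7%). These are classes of 1 continuous count, not cell types.

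The Hspa1 genes were highest in cells with many immediate early gene UMIs. In the library labelled oil, Hspa1a was at 1.65, 2.04, 2.43 and 7.55 CPM in cells with 0, 1 to 2, 3 to 5 and 6 or more, and in the library labelled tamoxifen at 0.443, 1.90, 4.25 and 8.12 CPM. The log2 ratio of the top class over the bottom one was 2.19 (0.84 to 3.90) and 4.20 (2.11 to 7.36), the latter resting on 2 UMIs in the bottom class. Hspa1b went from 3.96 to 11.4 CPM and from 2.66 to 11.7 CPM, with log2 ratios of 1.53 (0.61 to 2.57) and 2.13 (1.07 to 3.28). Dnajb1 showed the same direction over a smaller range, from 49.1 to 69.6 CPM and from 48.3 to 67.5 CPM, or 0.50 (0.22 to 0.79) and 0.48 (0.16 to 0.80). Dnaja1 had ratios of 0.20 (0.07 to 0.32) and 0.21 (0.06 to 0.36). These 4 genes had intervals above 0 in both libraries.

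The other 6 members went the opposite way or did not separate. Hsp90aa1 was at 2516 CPM in cells with no immediate early gene UMI and at 1454 CPM in those with 6 or more in the library labelled oil, and at 1891 and 997 CPM in the library labelled tamoxifen. Its log2 ratios were -0.79 (-0.84 to -0.74) and -0.92 (-0.99 to -0.85). Hsp90ab1 was at -0.58 and -0.76, Hspe1 at -0.94 and -1.09, and Hspd1, lowest of all, at -1.03 and -1.41. Hspa8 differed little, with -0.17 (-0.23 to -0.12) and -0.10 (-0.17 to -0.04), and Hsph1 had -0.77 (-1.34 to -0.21) and -0.57 (-1.37 to 0.17), the latter holding 0. Since Hsp90aa1 made up 87.1% and 85.0% of the UMIs of the 6 inducible members, their sum followed it and not the Hspa1 genes.

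**Figure D3:**
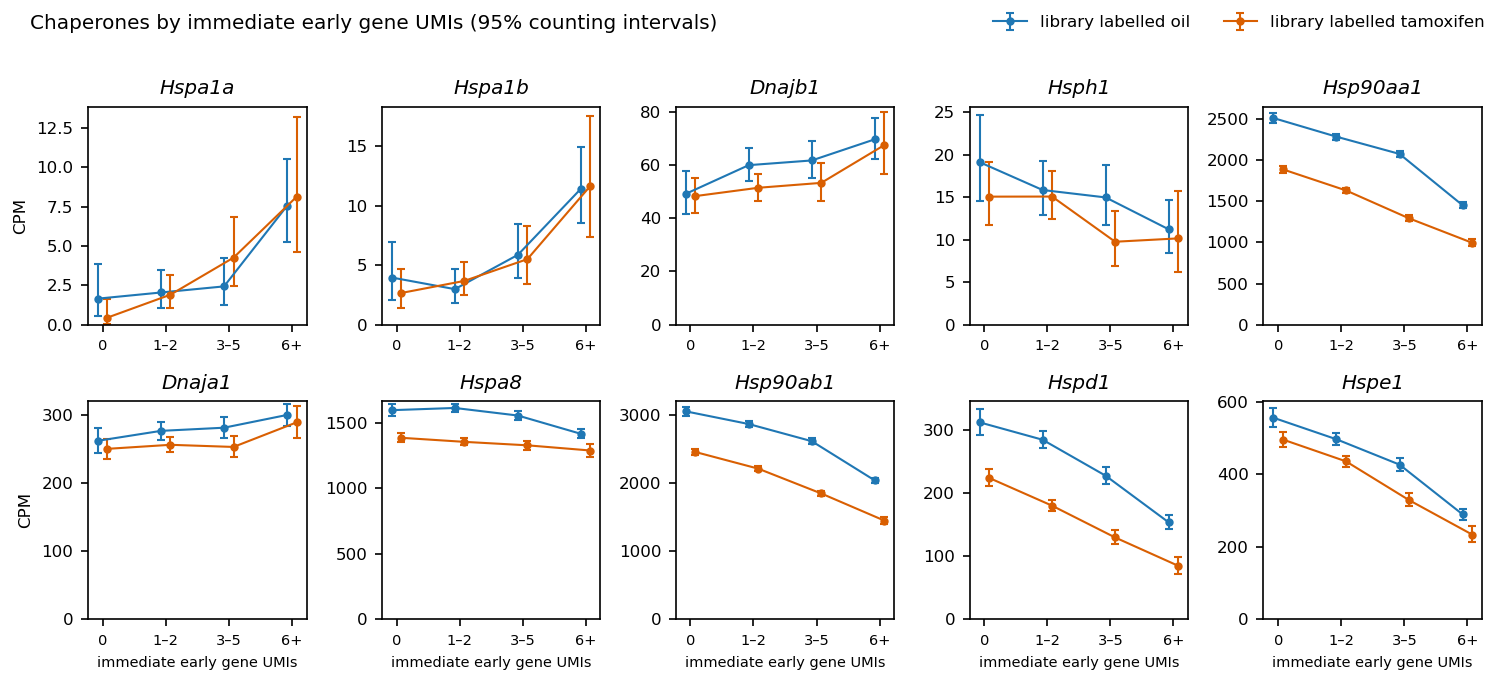
CPM of each chaperone in thinned cells with 0, 1 to 2, 3 to 5 or 6 and more immediate early gene UMIs, in the library labelled oil (blue) and the library labelled tamoxifen (orange), with 95% counting intervals and each axis starting at 0. Hspa1a and Hspa1b are highest in the last class (7.55 to 11.7 CPM), while Hsp90aa1, Hsp90ab1, Hspd1 and Hspe1 are lowest there.

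Cell cycle phase and depth moved with these classes. The share of cells called in G1 was 25.2% with no immediate early gene UMI and 68.5% with 6 or more in the library labelled oil, and 40.1% and 86.6% in the library labelled tamoxifen. The median depth before thinning went from 11784 to 6312.5 UMIs and from 10857 to 5394 UMIs, while the median mitochondrial share stayed between 6.77% and 7.07%. Among G1 cells alone, the top over bottom ratio of Dnajb1 was 0.98 (0.42 to 1.59) and 0.59 (0.17 to 1.02). In S it was -0.47 (-1.30 to 0.33) and 0.06 (-2.29 to 1.72) and in G2M 0.43 (-0.06 to 0.92) and 0.48 (-0.41 to 1.27), all of which hold 0. The Hspa1 genes kept intervals above 0 in G1 only in the library labelled tamoxifen, with 3.99 (1.29 to 9.39) for Hspa1a on 1 UMI in the bottom class and 1.74 (0.46 to 3.21) for Hspa1b. In the library labelled oil they were 0.59 (-0.94 to 2.57) and 0.42 (-0.75 to 1.83), which hold 0. In G2M cells of that library, by contrast, Hspa1b was at 3.05 (0.82 to 6.28) on 2 and 10 UMIs, and Hspa1a had 0 and 6 UMIs. For Hsp90aa1 the G1 ratios were -0.53 (-0.62 to -0.43) and -0.43 (-0.52 to -0.34), smaller than over all cells. For Hspe1 they were -0.72 (-0.93 to -0.51) and -0.74 (-0.93 to -0.55). Hspd1 was at -0.12 (-0.47 to 0.24) in G1 of the library labelled oil, which holds 0, and at -0.86 (-1.21 to -0.53) in the other. In S and G2M the intervals of Hspd1 lay below 0, except in S of the library labelled tamoxifen, at -0.27 (-0.98 to 0.37). The part of depth in these ratios was not tested.

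Correlations across cells had the same signs and were small. The points are cells of 1 library at 1 depth, 6330 and 6127 of them, and the values are descriptions. Pearson's correlation with summed immediate early gene UMIs was -0.26 and -0.19 for the summed inducible members, and -0.27 and -0.22 for the summed constitutive and mitochondrial ones. By member it was -0.28 and -0.22 for Hsp90aa1, -0.26 and -0.23 for Hsp90ab1, -0.20 and -0.17 for Hspe1 and -0.16 and -0.14 for Hspd1. For Hspa1a (0.065 and 0.055), Hspa1b (0.058 and 0.056) and Dnajb1 (0.033 and 0.034) it was close to 0. Correlations can be that small for genes with a UMI in few cells. For Dnaja1 it was also close to 0 (0.018 and 0.033), although a UMI was expected in 54.7% and 52.2% of cells. None of these values is a finding by itself. Without Hsp90aa1, a setting chosen after seeing the data, the inducible members had 0.036 and 0.049, so the sign of the summed correlation rests on that gene.

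Among themselves, Hsp90aa1, Hsp90ab1, Hspa8, Hspd1 and Hspe1 varied together. Dnaja1, with about as many UMIs as Hspd1, did not vary with them (0.014 and 0.038 with Hsp90aa1). Hsp90aa1 and Hsp90ab1 had the highest correlation, 0.41 and 0.39, and Hsp90ab1 with Hspe1 (0.34 and 0.32) and Hsp90aa1 with Hspd1 (0.31 and 0.30) also varied together. The 2 parts of the matrix chaperonin, Hspd1 and Hspe1, had 0.25 and 0.24. These pairs were not split by phase, and Hsp90aa1, Hsp90ab1, Hspa8, Hspd1 and Hspe1 were all lowest in G1 and highest in S. The part of phase in these correlations was not tested. The 15 pairs of inducible members had a median of 0.0034 and 0.014, and the highest of these pairs was Hspa1a with Hspa1b (0.10 and 0.11). Many of these pairs include Hspa1a, Hspa1b or Hsph1, which had a UMI in few cells, where correlations can be that small.

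**Figure D4:**
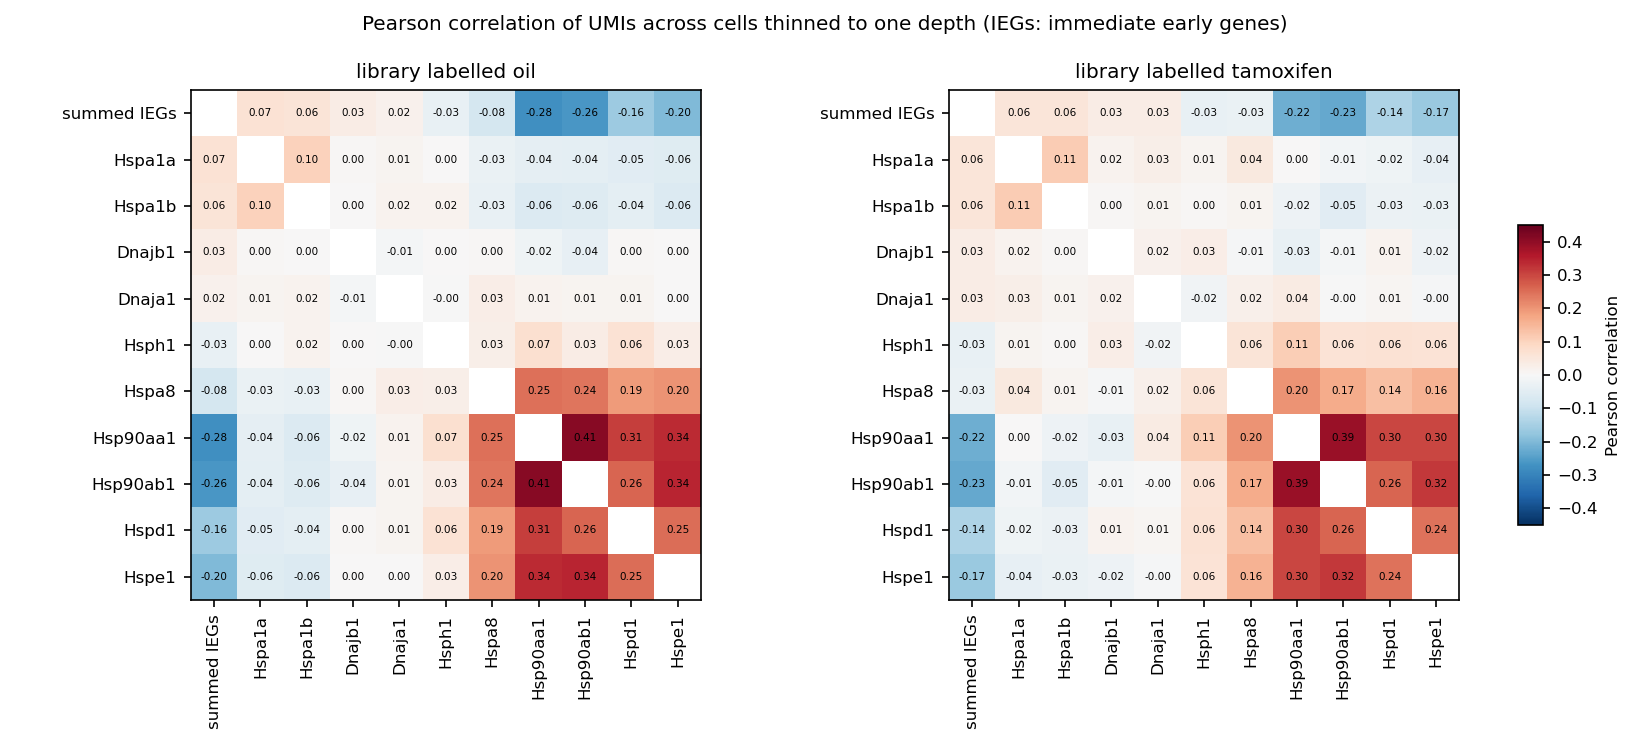
Pearson correlation across thinned cells between the chaperones, and between each chaperone and the summed immediate early genes (IEGs), in the library labelled oil (left) and the library labelled tamoxifen (right). Hsp90aa1, Hsp90ab1, Hspd1, Hspe1 and Hspa8 form a positive block. Of these, Hspa8 is nearest to 0 with the immediate early genes (-0.077 and -0.031). The others are negative with them, down to -0.28 for Hsp90aa1.

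The genes most like the summed inducible members across cells, by the lower of the 2 libraries' correlations among 6081 other genes seen in at least 5% of cells, were Ran (0.38), Ptma (0.34), Ranbp1 (0.33), Ppia (0.33), Tuba1b (0.32), Eif5a (0.32), Stmn1 (0.30), Anp32b (0.30), Hnrnpab (0.30) and Nme1 (0.29). They encode, among others, the nuclear transport GTPase, its binding protein, prothymosin, a tubulin and a translation factor. The 10 immediate early genes in that comparison ranked from 4769 to 5946 of 6081. The sum was nearly that of Hsp90aa1, with which it had correlations of 0.92 and 0.91.

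Phase separated most members, though not all of them. In the library labelled oil, Hsp90aa1 was at 1320 CPM in cells called G1, 2799 in S and 2546 in G2M, and Hspd1 at 114, 371 and 324 CPM. The library labelled tamoxifen gave 1096, 2404 and 2011 CPM for Hsp90aa1 and 98.4, 308 and 238 CPM for Hspd1. Hsp90ab1, Hspa8 and Hspe1 were also highest in S and lowest in G1 in both libraries. Hspa1a was highest in G1, with 5.82, 2.26 and 1.18 CPM in G1, S and G2M of the library labelled oil and 3.96, 1.80 and 0.76 CPM in the other, and its intervals in S overlapped those in G1 and in G2M. Hspa1b was highest in G1 as well, with 9.45 and 6.76 CPM. Dnajb1, although higher with immediate early gene counts, was highest in G2M, with 61.2, 53.2 and 65.5 CPM in G1, S and G2M of the library labelled oil and 54.0, 42.2 and 56.0 CPM in the other, and its G1 and G2M intervals overlapped. Hsph1 was lowest in G1 in both libraries (10.1 and 8.59 CPM). Dnaja1 hardly differed by phase (272 to 288 and 254 to 271 CPM).

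**Figure D5:**
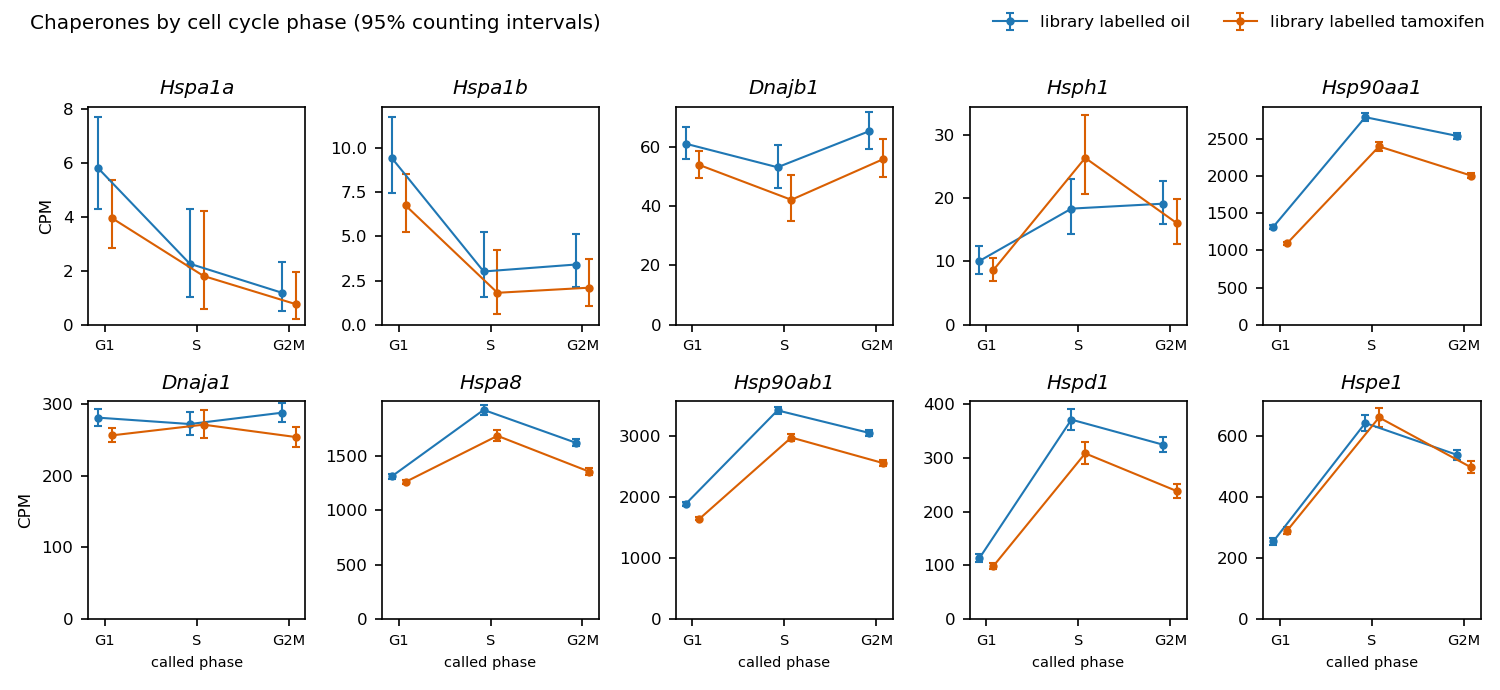
CPM of each chaperone in thinned cells called G1, S or G2M, in the library labelled oil (blue) and the library labelled tamoxifen (orange), with 95% counting intervals and each axis starting at 0. Hspa1a and Hspa1b are highest in G1, and Hsp90aa1, Hsp90ab1, Hspa8, Hspd1 and Hspe1 are highest in S.

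The libraries also differed in phase, with 43.5% of thinned cells called G1 in the library labelled oil and 56.3% in that labelled tamoxifen, and the marker lists of S and G2M phase had median log2 ratios of -0.39 and -0.36. Both libraries were therefore compared at the phase shares, and separately at the immediate early gene classes, of the library labelled oil. These comparisons were chosen after seeing the data and carry no interval. At equal phase shares Hspe1 was at 0.015 and Hsph1 at -0.0059, against -0.11 and -0.17 for the same thinned cells as they came, and Hspd1 was at -0.34 against -0.51. Hspa1a (-0.53) and Hspa1b (-0.55) were lower by more than before (-0.33 and -0.35). In G1 cells at full depth Hspa1a was at -1.04 and Hspa1b at -0.84, both at least 1.5-fold lower as were 3.31% of genes there, and Hspe1 was at 0.19. After thinning, the G1 ratios of the Hspa1 genes were -0.55 (-1.19 to 0.077) and -0.48 (-0.97 to 0.00068), which hold 0. At equal immediate early gene classes, at which the summed immediate early genes themselves were at -0.10, the order of the members changed. The Hspa1 genes then had ratios of 0.15 and -0.0026, which rest on few UMIs. Within each class their intervals held 0 and were wide, for Hspa1b from -0.74 to 0.76 in the top class, so a difference of the size seen before is not separated from 0. Hsp90aa1 was at -0.53 against -0.41, Hspd1 at -0.69 against -0.51 and Hspe1 at -0.25 against -0.11. In cells with 6 or more immediate early gene UMIs, Hspa1b was at 11.4 CPM in the library labelled oil and 11.7 in that labelled tamoxifen, and Hsp90aa1 at 1454 and 997.

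Cells with a UMI of Hspa1a or Hspa1b after thinning were 158 in the library labelled oil, or 2.50% (2.13 to 2.91, exact Clopper-Pearson), and 115 in the library labelled tamoxifen, or 1.88% (1.55 to 2.25). Both genes were seen in 9 and 6 of them. A UMI of Hspa1b was found in 14.8% (6.98 to 26.2) and 15.8% (6.02 to 31.3) of the 61 and 38 cells with one of Hspa1a, and in 1.55% (1.26 to 1.88) and 1.26% (0.999 to 1.58) of the other cells. Before thinning the highest count in 1 cell was 10 and 16 UMIs, so that 1 cell held 16 of the 340 UMIs of the pair in the library labelled tamoxifen. Immediate early genes were higher in these cells, by 0.72 (0.63 to 0.81) and 0.86 (0.73 to 0.99) on the log2 scale. Among G1 cells alone the difference was 0.26 (0.15 to 0.36) and 0.63 (0.49 to 0.77). Fos was higher by 0.76 (0.37 to 1.13) and 1.90 (1.43 to 2.34), but within G1 it was at -0.18 (-0.70 to 0.30) in the library labelled oil and at 1.55 (1.06 to 2.00) in the library labelled tamoxifen. Whether that differs between the libraries was not tested.

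Of the other inducible chaperones, only Dnaja1 had an interval above 0 in the cells with an Hspa1 UMI, and only in the library labelled tamoxifen. Dnajb1 was at 0.10 (-0.46 to 0.62) and 0.21 (-0.49 to 0.83), both holding 0, and Dnaja1 at 0.21 (-0.03 to 0.44) and 0.31 (0.03 to 0.59). Within G1 Dnaja1 was at 0.26 (-0.03 to 0.53) and 0.34 (0.03 to 0.65). Hsp90aa1 was lower, at -0.53 (-0.64 to -0.42) and -0.31 (-0.45 to -0.18), though within G1 it was -0.16 and 0.04. The matrix pair was lower too, Hspd1 at -1.11 and -0.80 and Hspe1 at -1.12 and -0.62. Within G1 Hspd1 was at -0.75 (-1.42 to -0.16) and -0.28 (-0.94 to 0.32), the latter holding 0, and Hspe1 at -0.75 and -0.49. Of the cells with an Hspa1 UMI, 70.9% and 81.7% were called G1, against 42.8% and 55.9% of those without, and their median depth before thinning was 6578.5 and 5780 UMIs against 9321.5 and 8613.5. Their median mitochondrial share, 6.84% and 6.80%, was near that of the rest, 6.91% and 6.89%.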

How the data were processed

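Chromium V3 3′ libraries were deposited by the authors as raw UMI counts per gene and barcode, made with Cell Ranger (matrix header 3.0.2) on mm10. Seurat is also named in the submitters' processing notes. The members and gene lists were chosen with earlier results of these data known. Kept barcodes had 500 or more genes and no more than 10% mitochondrial UMIs. No doublet caller was run and no doublets were removed, although the 6% of cells with most UMIs were left out in an alternative. Counts were summed per library and divided by the library total (CPM), with exact Poisson, conditional binomial or Clopper-Pearson intervals at 95%. The genes compared had 100 or more UMIs over both libraries. Cells were thinned to 3000 UMIs (508 and 345 shallower cells left out), and phase was scored with scanpy 1.11.5. On simulated counts for tamoxifen over oil with 10600 genes, intervals covered the truth in 95.0%. Those counts were drawn with counting error alone, which the intervals assume. The figure thus checks the calculation and says nothing on the spread between cells or mice. Genes were named by rule: all members, listed immediate early genes, the 2 highest and 2 lowest of each list, and the 10 genes most like the inducible sum. Python 3.11.15, numpy 2.4.6, scipy 1.17.1, R 4.3.3, edgeR 4.0.16 (TMM) and DESeq2 1.42.0 (median ratio) were used. Alternatives were other cell filters, scalings, count minimums, thinning depths, G1 cells alone and equal cell weights.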

Additional observations from a re-analysis of the deposited data

How the results depend on the processing

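With 1 library per group the values describe these libraries, and depth limits Hspa1a and Hspa1b most. No paired analysis was possible because only 1 library exists per group. The median log2 ratio of the inducible members ranged from -0.51 in the strictly filtered cells to -0.12 at equal immediate early gene classes, against -0.32. Every move was smaller than the spread between its members, but that spread is wide, from -0.53 to -0.12. At equal immediate early gene classes their sum went the other way, to -0.46 from -0.37 in the same thinned cells as they came. That of the constitutive and mitochondrial members was -0.30 in cells with 1000 or more genes and no more than 5% mitochondrial UMIs, -0.18 with TMM and with median-ratio scaling, -0.16 with a total lacking mitochondrial and ribosomal protein genes, -0.12 in G1 cells only, and, chosen after seeing the data, -0.19 at equal phase shares and -0.33 at equal immediate early gene classes. The immediate early gene median was -0.73 in G1 cells only. Hspe1 turned to 0.19 in G1 cells only. Hspa1a and Hspa1b were at least 1.5-fold lower in the strictly filtered cells (673 and 771 cells) and in G1 cells, and Hspa1a without the 6% of cells with most UMIs. The share of genes that much lower was then 7.04%, 3.31% and 1.96%. Genes at least 1.5-fold lower numbered 370 with at least 20 UMIs, 73 with at least 500, 741 in the strictly filtered cells, 206 without the 6% of cells with most UMIs, 88 with TMM, 86 with the reduced total, 231 with equal weight for every cell and 348 in G1 cells, against 134, and genes that much higher numbered 572, 105 and 769 in the first 3 of these, against 220. Pearson's correlation of the inducible sum with the immediate early genes (oil, then tamoxifen) was -0.22 and -0.17 at 2000 UMIs, -0.23 and -0.24 in strictly filtered cells, -0.14 and -0.082 in G1 cells, -0.14 and -0.098 with log-normalised counts averaged over genes, 0.062 and 0.061 for Hspa1a, Hspa1b and Dnajb1 only, and 0.036 and 0.049 without Hsp90aa1. Without thinning, the share of cells with a UMI was higher in the library labelled tamoxifen by 0.110 percentage points for Hspa8 and 1.91 for Hspe1.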

Other observations

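The 936 and 839 barcodes that the filter left out had lower summed levels of the inducible members than the kept cells, and the ratios of that sum and of the immediate early genes between the libraries were near those of the kept cells. Single members differed more. Among them the summed inducible members were at 1896 CPM in the library labelled oil and 1510 CPM in that labelled tamoxifen, a log2 ratio of -0.33 (-0.38 to -0.28), and the summed immediate early genes at 1382 and 835 CPM, a ratio of -0.73 (-0.79 to -0.67). Hspa1b had 28 and 13 UMIs there, a ratio of -1.17 (-2.24 to -0.17), while the interval of Dnajb1 held 0 at 0.11 (-0.18 to 0.39).

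The spread of counts between thinned cells, given as variance over mean, was 2.62 in both libraries for Hsp90aa1, 2.34 and 2.33 for Hsp90ab1 and near 1, the value for counting alone, for Dnajb1 (1.04 and 1.05), Dnaja1 (1.07 and 1.07) and Hsph1 (1.04 and 1.02). Hspa1a had 1.11 in the library labelled oil and 1.79 in that labelled tamoxifen, where the highest cell held 16 UMIs of the Hspa1 pair before thinning. Fos had 3.32 and 3.10 and Jun 3.28 and 2.91. The median among genes within 1.5-fold of the same level was 1.59 and 1.64 for Hsp90aa1 and 1.62 and 1.56 for Hsp90ab1. Of those genes, 81.4% and 78.8% had a lower value than Hsp90aa1, and 78.8% and 73.1% a lower one than Hsp90ab1. For Dnajb1, Dnaja1 and Hsph1 the median at the same level lay between 1.02 and 1.13.

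In cells with 2% to 5% mitochondrial UMIs Hspa1a was at 7.46 CPM in the library labelled oil, against 3.06 CPM in those with 5% to 10%, and at 4.63 CPM against 2.50 CPM in the library labelled tamoxifen. The counting intervals overlapped in both libraries.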
